A study of Mus musculus with 9 samples.

Results

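The regions described here are stretches of open chromatin that ranked among the strongest peaks of every multipotent progenitor (MPP) library and held no peak in any long-term haematopoietic stem cell (LT-HSC) library. They were found by merging the peaks of 9 ATAC-seq libraries, joining peaks that overlapped by at least 1 bp, which gave 117465 regions. Each list was ranked by the authors' −log10 q-value and then by fold enrichment, with rank 1 the strongest peak, and the strongest 22690 peaks of each list, the length of the shortest list, formed its top set. Of the 18776 regions with a top-set peak in all 4 MPP lists, 1019 (5.43%) were free of peaks in the complete lists of the 5 LT-HSC libraries. These 1019 were 1.06% of the 95786 regions held by 2 or more lists. The regions were chosen by the presence of LT-HSC peaks and the ranks of MPP peaks, so those values are a description and carry no test.

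ATAC-seq reads open chromatin through the Tn5 transposase, which inserts sequencing adapters into accessible DNA. The cells came from the bone marrow of C57BL/6 mice, where lineage-negative cells of pooled animals were enriched and the 2 cell types sorted by flow cytometry. The genotypes were wild type (WT) and a double knockout of the retinoid X receptors RXRa and RXRb (KO), giving 3 KO libraries (1, 2 and 4) and 2 WT libraries (2 and 3) of LT-HSCs, and 2 libraries of each genotype (1 and 2) of MPPs. No treatment is named, and the sources used here give neither the age of the mice nor how, or in which cells, the receptor genes were deleted. Nothing in the labels says that libraries of a group came from separate pools, so differences are set against the spread between libraries, which may be technical.

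LT-HSCs are the mostly quiescent cells at the top of blood formation, and MPPs are their cycling progeny, which have lost long-term self-renewal and begin to express programmes of the myeloid and lymphoid lineages. Open regions away from promoters are often enhancers, which are read by factors such as PU.1, RUNX1, C/EBP and IRF proteins in the myeloid and lymphoid branches. RXRs are nuclear receptors that bind DNA as partners of other nuclear receptors, among them the retinoic acid, vitamin D, PPAR and LXR receptors, at repeats of the half-site AGGTCA. In a bulk library, a peak that is stronger because more cells are open there cannot be told apart from one that is more open in each cell.

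Most of the regions lay away from gene starts, but 26 of the 983 that could be compared with RefSeq start sites covered part of a window from 250 bases before to 50 bases after a start. Sequences of 7 of these windows follow, chosen because the genes are myeloid or immune genes, or because the window holds a nuclear receptor half-site. Each run gives the 250 bases before the start, read 5′ to 3′ along the gene, from RefSeq on GRCm38.p6, the assembly that mm10 shares its primary chromosomes with. Capitals mark matches, on either strand, to 10 of the 17 searched letter patterns: GAGGAAGT for PU.1 and other ETS factors, TGTGGTT for RUNX, TTGCGNAA for C/EBP, AGATAAG for GATA factors, TGANTCA for AP-1, CACGTG for the E-box, AACNGTT for MYB, AGGTCA for the nuclear receptor half-site, a pair of GAAA runs spaced by 2 bases for IRF, and a GGAA run followed after 2 bases by a GAAA run for the ETS-IRF composite.
Ccl3, chr11:83649379-83649628, minus strand: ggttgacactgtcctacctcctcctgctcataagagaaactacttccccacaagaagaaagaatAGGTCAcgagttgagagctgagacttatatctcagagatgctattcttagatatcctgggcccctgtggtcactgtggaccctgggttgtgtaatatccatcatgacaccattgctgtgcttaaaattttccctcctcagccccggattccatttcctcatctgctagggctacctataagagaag
Ifitm6, chr7:141016893-141017142, minus strand: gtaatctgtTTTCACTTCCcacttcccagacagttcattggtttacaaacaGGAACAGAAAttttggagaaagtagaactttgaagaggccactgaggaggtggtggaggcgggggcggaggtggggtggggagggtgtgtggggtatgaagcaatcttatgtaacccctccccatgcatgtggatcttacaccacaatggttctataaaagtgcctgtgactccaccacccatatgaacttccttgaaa
Cd300c, chr11:114960508-114960757, minus strand: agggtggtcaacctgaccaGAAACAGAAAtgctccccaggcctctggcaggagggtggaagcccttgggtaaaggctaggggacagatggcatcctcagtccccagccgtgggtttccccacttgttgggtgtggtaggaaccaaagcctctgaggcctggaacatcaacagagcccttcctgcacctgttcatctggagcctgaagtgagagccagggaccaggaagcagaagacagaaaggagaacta
Tlr9, chr9:106222348-106222597, plus strand: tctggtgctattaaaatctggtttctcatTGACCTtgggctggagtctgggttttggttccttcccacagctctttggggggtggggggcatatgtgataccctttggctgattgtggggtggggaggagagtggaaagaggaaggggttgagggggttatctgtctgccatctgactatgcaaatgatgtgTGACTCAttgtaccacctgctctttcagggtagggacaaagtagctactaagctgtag
Mmp8, chr9:7558179-7558428, plus strand: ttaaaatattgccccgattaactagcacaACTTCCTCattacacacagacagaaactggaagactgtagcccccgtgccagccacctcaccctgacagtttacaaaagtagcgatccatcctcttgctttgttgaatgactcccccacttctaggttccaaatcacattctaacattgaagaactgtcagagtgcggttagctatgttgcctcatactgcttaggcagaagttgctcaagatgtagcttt
Ly6c2, chr15:75111972-75112221, minus strand: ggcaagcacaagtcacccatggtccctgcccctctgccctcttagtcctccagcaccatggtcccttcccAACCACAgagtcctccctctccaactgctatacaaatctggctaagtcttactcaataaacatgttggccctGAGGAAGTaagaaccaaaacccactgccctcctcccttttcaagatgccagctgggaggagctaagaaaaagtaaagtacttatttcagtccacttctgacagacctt
Mexis, chr4:53270233-53270482, minus strand: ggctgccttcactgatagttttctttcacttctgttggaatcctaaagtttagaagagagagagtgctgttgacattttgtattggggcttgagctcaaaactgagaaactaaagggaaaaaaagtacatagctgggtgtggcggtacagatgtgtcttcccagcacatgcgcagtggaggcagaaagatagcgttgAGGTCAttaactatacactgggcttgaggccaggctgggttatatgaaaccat

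The shown stretch of Ccl3, which encodes a chemokine of activated myeloid cells, carried a half-site 186 bases before the start. Ifitm6, an interferon-inducible transmembrane gene of myeloid cells, had 2 ETS-IRF composites, and Cd300c, an immunoglobulin-like receptor of myeloid cells, had an IRF match 231 bases before its start. In Tlr9, the endosomal receptor for unmethylated DNA, a half-site lay 221 bases and an AP-1 match 58 bases before the start, and a PU.1 match lay 11 bases after it, beyond the printed run. Mmp8, the neutrophil collagenase, had a PU.1 match 221 bases before its start. Ly6c2, a surface antigen of monocytes, had a RUNX match and a PU.1 match 180 and 108 bases before the start shown. It has near-identical neighbours in the Ly6 family, so reads there could have been placed on a copy. Mexis, a long noncoding RNA described in macrophages as a target of LXR that acts on the neighbouring cholesterol transporter gene Abca1, had a half-site 53 bases before its start.

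Together the 26 regions covered 29 windows of 26 genes, 14 of them protein-coding. The protein-coding genes were Ccl3, Ifitm6, Cd300c, Tlr9, Pi16, Mmp8, B3galt5, Galnt9, Card9, Nlrc4, Ly6c2, Ctsg, Vrk1 and P2ry14, and the other 12 genes were noncoding or predicted transcripts. Besides those introduced above, Card9 and Nlrc4 are adaptors of innate immune sensing, and Ctsg encodes cathepsin G, a neutrophil granule protease. The windows had a median GC content of 48.7% (range 40.0% to 56.0%) and a median of 4 CpG dinucleotides. By comparison, the 6989 windows covered by regions in the top set of all 9 lists had a median of 62.0% and 23 CpG, and all 31396 windows of chromosomes 1 to 19 had 53.0% and 7.

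The half-site AGGTCA was found in 9 of the 29 windows (31.0%) and in 16.3% of all windows. GAGGAAGT occurred in 4 of 29 (13.8%) against 3.25%, but 2 of those 4 are overlapping windows of Ly6c2, and the 9 windows with a half-site include 2 overlapping ones of Gm47815. The RUNX pattern stood in 10.3% against 5.32%, that of AP-1 in 10.3% against 7.84%, the E-box in 6.90% against 7.14%, the ETS-IRF composite in 6.90% against 2.74%, the C/EBP pattern in 3.45% against 0.796% and the IRF pattern in 3.45% against 3.46%. The E2A pattern CAGCTG, the MEF2 pattern of CTA and TAG spaced by 4 bases, the HOX-MEIS pattern TGATTTAT and the letters CCCTC, part of the CTCF site, occurred in 17.2%, 3.45%, 3.45% and 58.6% of the windows, against 16.3%, 3.73%, 0.978% and 66.3% of all. The 2 overlapping windows of Ly6c2 are both counted among the 3 windows with the RUNX pattern, the 5 with the E2A pattern and the 17 with CCCTC. The GATA and MYB patterns, an NF-kappa-B pattern (GGGAC followed by TTTCC), and direct repeats of the half-site spaced by 1 or 4 bases were in none of the 29 windows and in 3.03%, 4.32%, 0.159%, 0.0382% and 0.0159% of all. The half-site also lies inside those repeats, and IRF and composite matches can overlap. A match of letters is a description of the sequence and not a binding site.

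Away from these windows the regions kept far from gene ends. Only 50 of the 1019 (4.91%, 95% Wilson interval 3.74% to 6.41%) lay within 1 kb of either end of a protein-coding gene, compared with 45.3% of the 17757 strong MPP regions that also held an LT-HSC peak and 59.3% of the 9717 regions in the top set of all 9 lists. The share was higher with each LT-HSC list that held a peak, at 7.96% of regions held by 1 list and 12.4%, 18.6%, 32.5% and 58.6% of those held by 2, 3, 4 and 5. Among regions over 1 kb from a gene end, 969 of 10683 (9.07%) were the MPP-only ones. Other sets with peaks in 1 cell type alone were similar in place: the 15585 other MPP-only regions, which missed the top set of at least 1 MPP list, had 7.35% near a gene end, and the 153 strong LT-HSC-only regions, in the top set of all 5 LT-HSC lists with no MPP peak, had 6.54% (3.59% to 11.6%). A low share near gene ends was therefore measured in all 3 sets and is not particular to the strong MPP-only regions.

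A gene contained the midpoint of 503 regions (49.4%), and 78 (7.65%) had no protein-coding gene within 100 kb. The median distance to a start site was 16.7 kb (quartiles 6.17 to 41.5), against 3.49 kb for strong MPP regions with an LT-HSC peak, 18 kb for other MPP-only regions and 31.6 kb for strong LT-HSC-only regions. The 36 regions on chromosome 18 are not in these distances, since start sites of that chromosome were not used here. The regions had a median width of 472 bp (range 305 to 1001). That of strong MPP regions with an LT-HSC peak was 620 bp, of strong LT-HSC-only regions 526 bp and of other MPP-only regions 363 bp. The summits of the 4 MPP peaks of the strong MPP-only regions lay within a median of 26 bp of each other. They were rarely far from chromatin open in stem cells. The nearest region with an LT-HSC peak was a median of 4.92 kb away, and for 152 of them (14.9%) it was within 1 kb. For strong MPP regions with an LT-HSC peak, the nearest other LT-HSC region was 5.18 kb away. The nearest other strong MPP-only region was within 50 kb for 169 (16.6%).

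**Figure D1:**
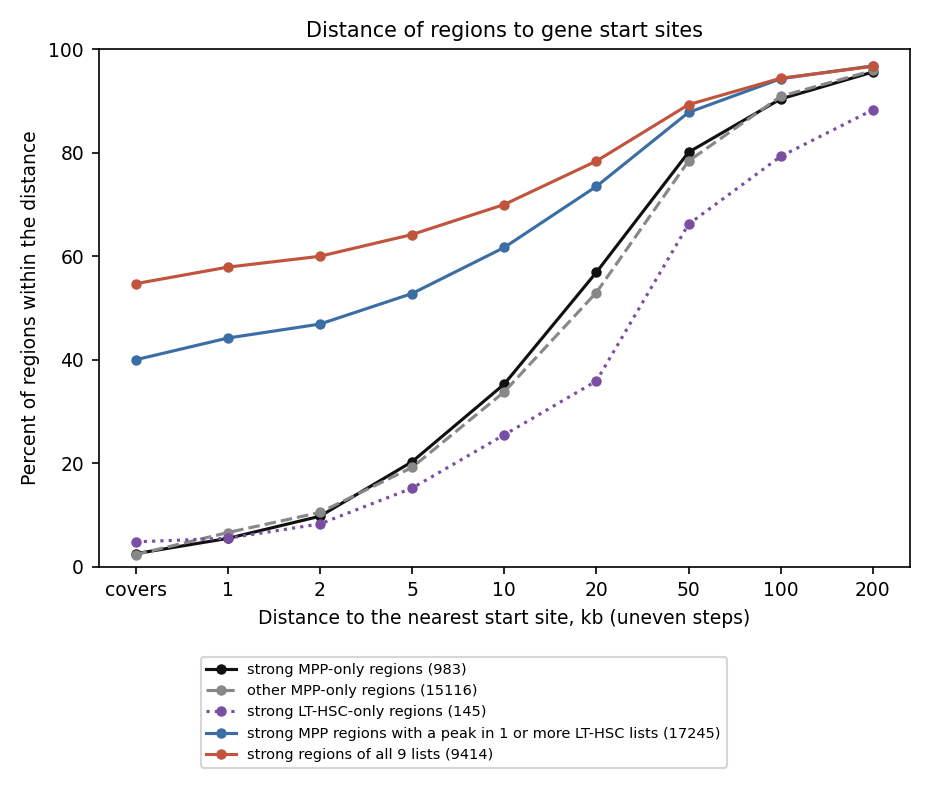
Percent of regions (y axis) whose nearest RefSeq start site lies within the distance on the x axis, in kb with uneven steps, for 5 sets with the number of regions in brackets. The strong MPP-only regions run with the other MPP-only regions, with 2.54% and 2.36% covering a start site. Both run below the 2 sets with peaks in both cell types. From 2 kb outward the strong MPP-only regions lie above the strong LT-HSC-only regions, with 56.9% against 35.9% within 20 kb.

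Of the 1019 regions, one 3.85 kb from Anks3, a gene for an ankyrin-repeat protein of primary cilia, had the best mean rank, at 3328 and 3257 in the KO lists and at 1980 and 2822 in the WT lists of MPPs. Its fold enrichments over background, which like all folds and q-values here are the authors', were 26.2, 26.3, 29.4 and 27.4. Both WT ranks were stronger than both KO ranks. A region inside Rab7b, which encodes a small GTPase of late endosomes, followed with 4268 and 4284 in KO and 2789 and 3094 in WT. The region over the Ccl3 start ranked 4562 and 4533 in KO and 2654 and 3257 in WT, with folds of 19.9, 19.4, 22.4 and 20.3; the midpoint rule assigns it to the neighbouring chemokine gene Ccl4. Next came regions near Plpp3, a lipid phosphatase gene, within Atp9b, a gene of the lipid flippase family, near Tagap, a gene of a GTPase-activating protein of lymphocytes, within Runx1, the transcription factor of definitive blood formation, within Cadm1, a cell adhesion gene, within Otulinl and within Xxylt1. Of these 10 regions, those at Tagap, Runx1 and Otulinl had overlapping KO and WT ranks, and at the other 7 both WT ranks were stronger. That order was found at 64.1% of all 1019 regions and at 22.9% of all 18776 strong MPP regions. The opposite order was found at 6.58% and 23.9%.

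At the other end of the ranking, the last regions inside the threshold were at Slc25a24, Znrd1as and Noxred1, with a weakest rank of 22669, 22674 and 22681. The first regions outside it were near Wnt10a, on a gene-free stretch of chromosome 4 and near Tex52, with weakest ranks of 22692, 22710 and 22714.

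The 941 regions with a gene within 100 kb belonged to 858 genes, of which 783 had 1 region, 68 had 2, 6 had 3 and 1 had 4. Coq2, which encodes an enzyme of ubiquinone synthesis, had the 4, and together with a region near Plac8, a gene of myeloid and lymphoid progenitors, they formed a run of 5 regions over 81.0 kb of chromosome 5, with the heparanase gene Hpse within 20 kb of it. In 4 of these 5 both WT ranks were stronger. The genes with 3 regions were Runx1, Smad3, Aopep, Rftn1, Mcf2l and Zcchc24. The 3 regions of Smad3, the transducer of TGF-beta signals, ranked 9383 and 10820, 11767 and 13217, and 12970 and 11073 in KO and 6807 and 6815, 8338 and 8074, and 9165 and 8963 in WT, so that at each of them WT was stronger without overlap. Mcf2l had its 3 regions and another by the clotting factor genes F7 and F10 within 73.6 kb, all 4 with WT ranks stronger. The 3 regions at Cd300lb, Cd300c and Cd300c2, paired immune receptors of myeloid cells, lay within 73.5 kb of chromosome 11 and also all had stronger WT ranks. By contrast, 1 of the 3 regions of Rftn1, a lipid raft gene of B cells, had stronger KO ranks. WT was stronger at all 3 regions of Zcchc24 but at only 1 of 3 at Runx1 and at Aopep, where the other ranks overlapped. Runs of 3 regions by Tgfb1 and by Plet1 also had 1 with WT stronger. These orders stand beside the 64.1% of all 1019 regions at which both WT ranks were stronger. On chromosome 10, 3 regions stood within 21.0 kb with no gene within 20 kb and no region with an LT-HSC peak between them. WT was stronger at 1 of these 3.

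The gene lists used here were chosen with earlier results of these data known and are described by counts, beside the 5.43% of all strong MPP regions that were MPP-only. Over all 22 lists together, 73 of 1008 strong MPP regions were (7.24%). Intervals given for lists cover the counting of regions only, and regions near 1 gene are not independent. Of all 1019 regions, 64.1% had both WT ranks stronger and 6.58% both KO ranks, the shares beside which the orders within a list stand.

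Of the strong MPP regions at genes of innate sensing and phagocytosis, 6 of 22 were MPP-only (27.3%, 13.2% to 48.2%). Of the 15 over 1 kb from a gene end, 5 were (33.3%), against 9.07% of all strong MPP regions at that distance. The region at the start of Tlr9 ranked 9281 and 13743 in KO and 6985 and 9303 in WT. Mrc1, the macrophage mannose receptor, had a region within the gene at 14178 and 12739 in KO and 10822 and 7975 in WT. At Tlr6, a receptor for bacterial lipopeptides, the ranks were 12839 and 13845 in KO and 9699 and 9487 in WT, and near Ly96, which encodes the MD-2 partner of Tlr4, they were 15567 and 14611 in KO and 9897 and 10188 in WT. WT was stronger without overlap at 4 of the 6 and the ranks overlapped at the other 2, Tlr9 among them.

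Myeloid granule and priming genes held 4 of 22 (18.2%, 7.31% to 38.5%). Cathepsin G had 2, one over its start at 15199 and 18123 in KO and 12267 and 13879 in WT, and one 2.51 kb before it whose ranks overlapped. Regions near Ly86, a partner of the Toll-like receptor homologue CD180, and near Plac8 made up the rest, and over the list WT was stronger at 2 of 4 and the ranks overlapped at 2. Myeloid transcription factor genes held 5 of 62 (8.06%), close to the background: 3 at Runx1, 1 within Runx2 and 1 at Irf4. WT was stronger at 1 of the 5 and the ranks overlapped at 4. The region near Irf4, a regulator of dendritic cells, B cells and plasma cells, ranked low in every MPP list, at 20391 and 21620 in KO and 20712 and 20138 in WT.

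Lymphoid effector genes had the highest share, 4 of only 14 strong MPP regions (28.6%, 11.7% to 54.6%). The region within Blk, a B-cell kinase gene, ranked 11244 and 11778 in KO and 13316 and 13547 in WT, stronger in KO without overlap. Those at Klrd1, an NK-cell receptor, Ctla4, an inhibitory receptor of T cells, and Fcrla, a B-cell Fc receptor-like gene, had overlapping ranks. Lymphoid transcription factor genes had 2 of 72 (2.78%), near Ikzf1, where the ranks overlapped, and Notch1, where KO was stronger.

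**Figure D2:**
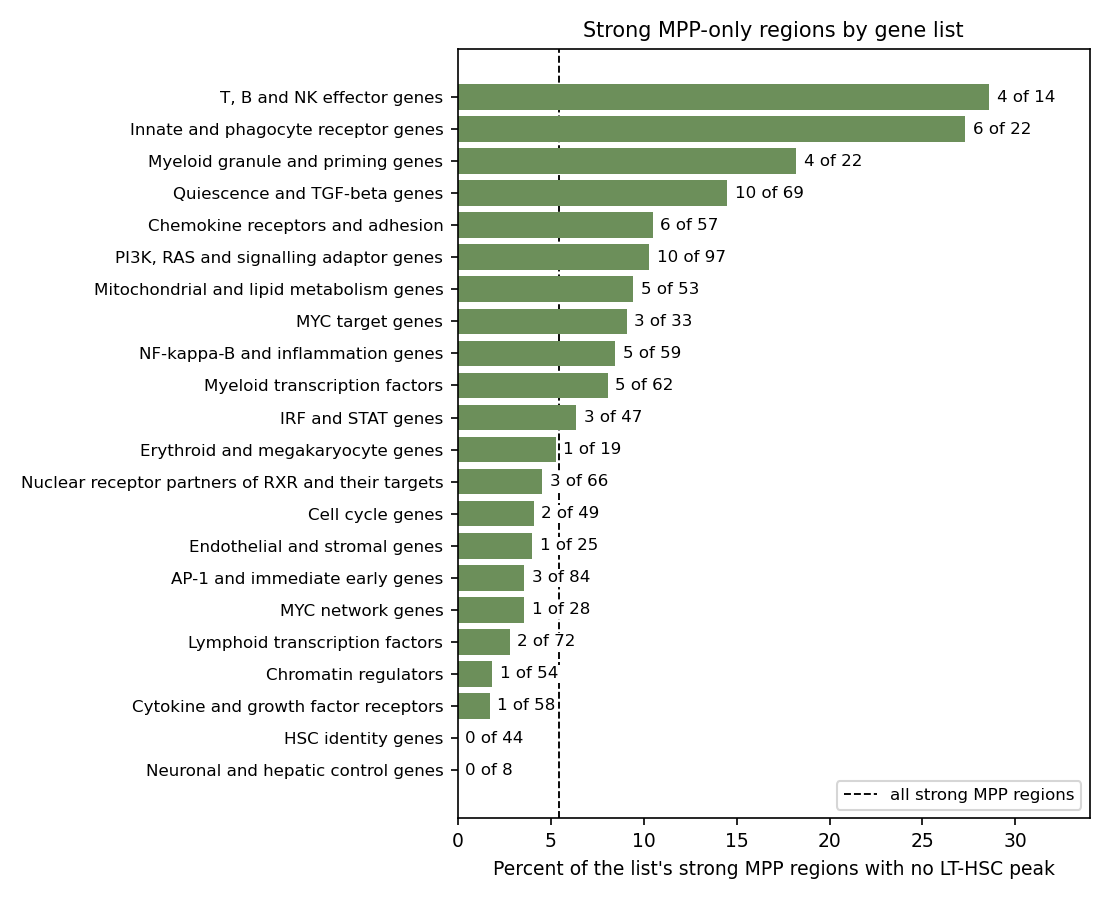
Percent of the strong MPP regions of each gene list (x axis) that had no LT-HSC peak, with the counts beside the bars and a dashed line at the 5.43% of all strong MPP regions. Innate receptor genes (6 of 22) and lymphoid effector genes (4 of 14) have the longest bars on few regions, and HSC identity genes have none of 44.

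Genes of quiescence and TGF-beta signalling held 10 of 69 (14.5%, 8.07% to 24.7%), all over 1 kb from a gene end, in 7 genes. At that distance the list had 47 strong MPP regions, so the share was 21.3%, against 9.07% of all strong MPP regions there. Besides those of Smad3, a region 1.62 kb from Tgfb1, the ligand, ranked 11047 and 10342 in KO and 5466 and 6629 in WT. Tgfbr2, the type II receptor, had 2 regions that went opposite ways. The one 2.77 kb from the gene ranked 17658 and 18443 in KO and 9994 and 10032 in WT, while the one 94.9 kb away ranked 11318 and 12873 in KO and 19624 and 14788 in WT. Foxo3, a transcription factor of stem cell quiescence, had a region 16.9 kb away at 12814 and 16447 in KO and 12284 and 10023 in WT. WT was stronger at 7 of the 10 and KO at 1.

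Chemokine receptor and adhesion genes held 6 of 57 (10.5%, 4.91% to 21.1%), and WT was stronger at 5. Near Itgam, which encodes the integrin CD11b of myeloid cells, the ranks were 11840 and 11666 in KO and 8475 and 8206 in WT. Near Cxcr4, the receptor that holds progenitors in the marrow, they were 12190 and 14588 in KO and 6691 and 7347 in WT. Near Cx3cr1, the fractalkine receptor, the region ranked 13764 and 12232 in KO and 11601 and 11814 in WT, and within Itgax, the integrin CD11c of dendritic cells, the ranks overlapped.

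The lists of NF-kappa-B and inflammation genes and of IRF and STAT genes had shares close to the background, 5 of 59 (8.47%) and 3 of 47 (6.38%). Both WT ranks were stronger at all 8 regions, beside 64.1% of all 1019. Near Tnfaip3, which encodes the NF-kappa-B brake A20, regions stood 18.2 and 38.1 kb away, the nearer at 12268 and 9602 in KO and 6512 and 8841 in WT. The region by Nfkbia, the inhibitor of NF-kappa-B, lay 0.049 kb from the gene, at 8916 and 10538 in KO and 7106 and 7660 in WT. Regions of Ptgs2, an inducible enzyme of prostaglandin synthesis, and Il6, the inflammatory cytokine, were 35.3 and 64.4 kb away. Irf5, a transcription factor of Toll-like receptor signalling, had a region 1.5 kb from the gene that ranked 11105 and 9405 in KO and 5911 and 5500 in WT. The others were within Tyk2, a Janus kinase, and Stat4.

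PI3K, RAS and adaptor genes held 10 of 97 (10.3%, 5.70% to 17.9%), with WT stronger at 6 and KO at 1. Rptor, the mTOR partner, and Prkcd, a protein kinase C, had 2 regions each. Mitochondrial and lipid genes held 5 of 53 (9.43%), of which 4 were those of Coq2 and the other lay within Ppargc1a, the coactivator of mitochondrial biogenesis. MYC target genes had 3 of 33 (9.09%), near Slc7a5, Tfrc and Odc1, and all 3 had stronger WT ranks, a count too small to set apart from the 64.1% of all regions. The region nearest to Myc, 9.20 kb away, ranked 12277 and 14062 in KO and 11277 and 11429 in WT.

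Nuclear receptor partners of RXR and their targets had 3 of 66 (4.55%, 1.56% to 12.5%), a share near the background. A region 19.9 kb from Plin2, the lipid droplet gene activated by PPAR receptors, ranked 21415 and 17095 in KO and 7556 and 10429 in WT, with folds of 16.2, 20.2, 24.1 and 21.3. Within Rara, the retinoic acid receptor that pairs with RXR, the ranks were 16719 and 20576 in KO and 14771 and 12976 in WT. Within Ncoa2, a coactivator of nuclear receptors, they were 19645 and 20990 in KO and 19257 and 19441 in WT. At all 3, WT was stronger without overlap, by a narrow margin at Ncoa2 and by a wide one at Plin2, an order that 64.1% of all 1019 regions share. None of the 1019 regions was assigned to Rxra or Rxrb.

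Genes of HSC identity had none of their 44 strong MPP regions among the MPP-only ones. A count of 0 of 44 allows a share of up to 6.82% if 3 regions are taken as the limit, and up to 8.03% by the Wilson interval. Both are above the 5.43% of all regions, so a lower share than the background was not detectable. Cytokine receptors (1 of 58), chromatin regulators (1 of 54), cell cycle (2 of 49), MYC network (1 of 28), AP-1 (3 of 84), erythroid and megakaryocyte (1 of 19), stromal (1 of 25) and neuronal and hepatic control genes (0 of 8) were at or below it. At both regions of the cell cycle list, which lie near Rb1, the ranks overlapped.

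Markers of the sorted cells and of cells that a sort can carry over were looked up in the same way. None of the regions was assigned to a marker of LT-HSCs or MPPs, Flt3, Cd48 and Slamf1 included, nor to a T, B, erythroid, endothelial or stromal marker. The LT-HSC and MPP markers had 10 and 17 strong MPP regions in all, and Slamf1 had 0. The T, B and erythroid markers had 0, 1 and 1, and the endothelial and stromal markers had 5. On so few regions, a count of none cannot be told from the 5.43% of all strong MPP regions. Of the mature myeloid markers, Itgam, Adgre1 and Mrc1 had 1 each, which made 3 of the 6 strong MPP regions of these markers. Over all 31 regions of the mature myeloid markers held by 2 or more lists, the MPP libraries held 26 to 28 and the LT-HSC libraries 2 to 13, and of the 7 regions of T-cell markers they held 6 to 7 and 0. The MPP lists are the longer ones, and they also held more of the 75 regions of MPP markers (64 to 69 against 9 to 40) and of the 52 regions of endothelial and stromal markers (39 to 47 against 4 to 26). Of the 6 regions of B-cell markers they held 4 to 6 against 0 to 2. The lists overlapped at the 97 regions of LT-HSC markers (60 to 68 against 14 to 74) and the 10 of erythroid markers (4 to 7 against 2 to 7). The part of other cells in the result was not tested.

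The 4 MPP lists did not rank these regions alike. Their median rank was 16096 and 16062 in the KO lists and 12721 and 13169 in the WT lists, so both WT lists placed them higher. The mean of the medians was 16079 ± 24.0 in KO and 12945 ± 317 in WT (SD, n = 2 each), a difference of 3134 ranks that was larger than the spread within either genotype. With 2 libraries of each genotype, an exact two-sided permutation test has 6 labellings and cannot go below p = 0.333, the value it gave for these regions and for both comparison sets, so nothing is read from it. For the strong MPP regions with an LT-HSC peak the same difference was −123.5, and for the regions in all 9 top sets −190.5.

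**Figure D3:**
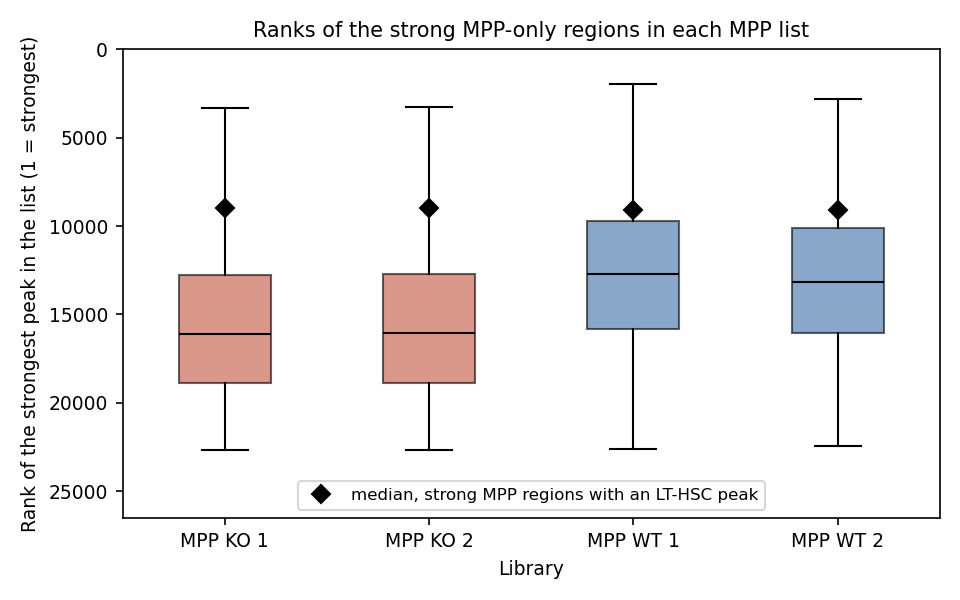
Rank of the strongest peak of the 1019 regions (y axis, 1 at the top) in each MPP list, as box plots with median, quartiles and full range, with diamonds at the median of strong MPP regions that also hold an LT-HSC peak. The WT boxes sit higher than the KO boxes, with medians of 12721 and 13169 against 16096 and 16062, while the diamonds are level.

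Few of the regions were among the strongest peaks of a KO list. Its first 5000 peaks included 9 and 7 of them in KO 1 and 2, against 32 and 26 in WT 1 and 2, and its first 10000 included 113 and 102 against 277 and 247. Their median fold enrichment was 17.3 and 18.3 in KO and 19.6 and 18.8 in WT, a narrower gap than that of the ranks. The highest −log10 q-value of a list also moved with genotype, at 1091 and 1085 in KO and 1299 and 1394 in WT and its part in the result was not tested. The regions with an LT-HSC peak, read from the same lists, had median ranks of 8982 and 8965 in KO and 9112 and 9082 in WT.

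Region by region, both WT ranks were stronger than both KO ranks at 653 of 1019 (64.1%, 61.1% to 67.0%), both KO ranks were stronger at 67 (6.58%, 5.21% to 8.27%), and the ranks overlapped at 299. Among all 18776 strong MPP regions these shares were 22.9% and 23.9%. The share was alike near gene ends, at 30 of 50, and away from them, at 623 of 969. Regions are not replicates, and no test was made over them.

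**Figure D4:**
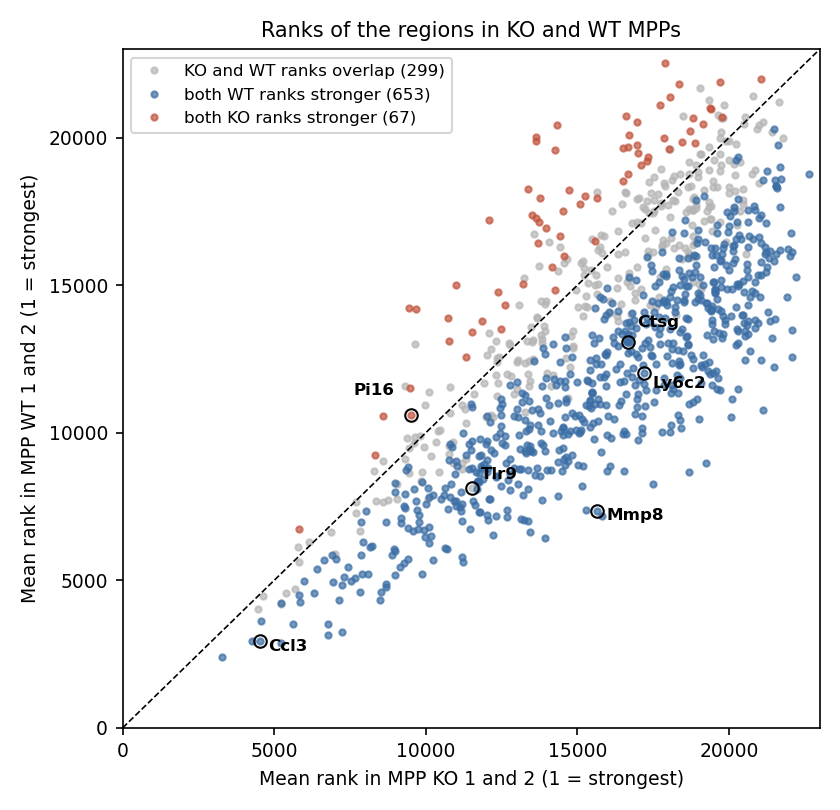
Mean rank in the 2 MPP KO lists (x axis) against that in the 2 MPP WT lists (y axis) for the 1019 regions, with 1 the strongest rank and a dashed line at equal ranks. The 653 regions with both WT ranks stronger fill the space below the line, the 67 with both KO ranks stronger lie above it, and 6 regions over gene starts are named.

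The order of the genotypes moved with the number of LT-HSC lists that held a peak. Regions with WT stronger made up 64.1% of those with no such list and 43.2%, 29.2%, 23.4%, 19.8% and 18.2% of those with 1 to 5 lists, while KO was stronger at 6.58%, 12.3%, 17.9%, 20.9%, 26.1% and 26.6%. Ranks within a list are relative, so regions that rank higher in one list push others lower. The regions without an LT-HSC peak also had weaker mean ranks, so the comparison was repeated within bands of mean rank. Between mean ranks of 10000 and 15000, WT was stronger at 73.1% of 364 MPP-only regions and 15.6% of 2030 regions held by all 5 LT-HSC lists, or 13.2% of the 1171 of these over 1 kb from a gene end. Between 5000 and 10000 the values were 74.3% of 136 and 19.3% of 3312. Between 15000 and 20000, the band with the most MPP-only regions, they were 56.8% of 477 and 13.1% of 1055. Regions held by 1 to 4 LT-HSC lists lay between, at 27.6% from 5000 to 10000, 26.8% from 10000 to 15000 and 20.4% from 15000 to 20000. In the weakest band, past 20000, 7 of 30 had WT and 7 of 30 had KO stronger.

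**Figure D5:**
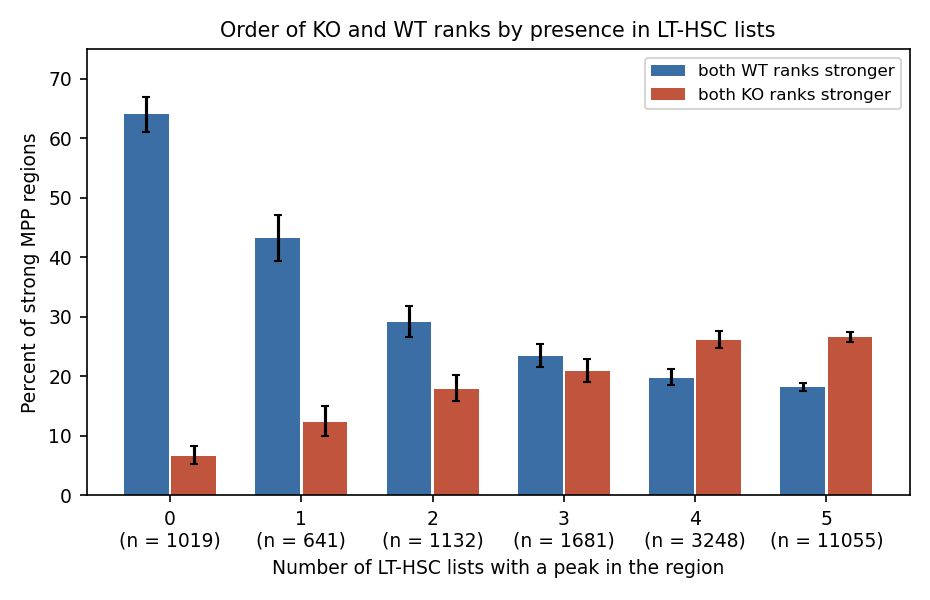
Percent of strong MPP regions with both WT or both KO ranks stronger (y axis), by the number of LT-HSC lists with a peak in the region (x axis, with the number of regions), and 95% Wilson intervals that cover the counting of regions only. The WT bars fall from 64.1% to 18.2% and the KO bars rise from 6.58% to 26.6%.

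Weaker MPP-only regions leaned the same way but less. With the first 78189 peaks of each MPP list, the length of the shortest, WT was stronger at 41.6% of 14090 other MPP-only regions and KO at 1412 of them, against 23.4% and 23.9% of all 61106 regions. Whether an LT-HSC peak was absent rested in part on 1 library: LT-HSC KO 4, with 71586 peaks the longest LT-HSC list, was the only LT-HSC list to hold 501 further strong MPP regions. With absence judged on the 2 LT-HSC WT lists alone, WT was stronger at 54.0% of 1782 regions, and on the 3 LT-HSC KO lists alone at 63.4% of 1110.

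The widest shifts towards WT were near Ctsh, Plin2, Slc30a1, Ptcd2 and Kctd1. The region 11 kb from Ctsh, which encodes the lysosomal protease cathepsin H, ranked 21109 and 21140 in KO and 10281 and 11276 in WT. Slc30a1, a zinc exporter gene, had ranks of 15962 and 21390 in KO and 9076 and 8247 in WT. At the start of Mmp8 the ranks were 16441 and 14878 in KO and 7059 and 7610 in WT, with folds of 14.3, 17.0, 22.2 and 20.9. The widest shifts towards KO were within Ubxn11, near Tob2, an antiproliferative gene, near Kcnv2, within Slc45a4 and at the distal region of Tgfbr2. The region within Ubxn11 ranked 11772 and 15516 in KO and 19865 and 20195 in WT, and that near Tob2 ranked 13962 and 13333 in KO and 19368 and 20385 in WT. Among the regions whose start sequences are given above, that of Ifitm6 ranked 9519 and 10526 in KO and 6872 and 8289 in WT, and that of Cd300c ranked 10668 and 10954 in KO and 7830 and 7801 in WT. For Ly6c2 the ranks were 16133 and 18262 in KO and 12788 and 11243 in WT, and for Mexis 17831 and 22162 in KO and 15033 and 16024 in WT. All 4 were stronger in WT without overlap, as were Ccl3 and Mmp8, while those of Tlr9 overlapped. Over all gene starts, WT was stronger at 17 of 26 regions and KO at 3, which were those of Pi16, Gm35438 and Gm34679. Among the 14 protein-coding genes with a covered start, WT was stronger at 9. Both shares are close to the 64.1% of all 1019 regions, so the order is not particular to gene starts.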

How the data were processed

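Open chromatin was measured by ATAC-seq in 9 libraries, and the authors deposited 1 narrowPeak list for each, called separately. Peaks were called on mm10, and MACS2 2.1.1, cutadapt 1.7, HOMER 4.10.3, DiffBind 2.6.6, edgeR 3.20.9 and SAMtools 0.1.18 are named without roles, per the submitters' processing notes. For each peak the authors deposited its enrichment as a ratio (fold over background), its q-value and p-value as −log10, and a display score, which was not used. The shift of reads for the Tn5 cut and the removal of duplicates are named in none of the sources used here. Read counts were not used here, so depth is unknown and list length (22690 to 86353 peaks, 540767 in all on chromosomes 1 to 19) stands in for it.

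Peaks were ranked within a list, merged and compared by presence with Python 3.11.15, pandas 2.3.3, numpy 2.4.6 and scipy 1.17.1. A rank is comparable between lists only as an order. Regions were assigned to 1 of 20661 protein-coding genes of GRCm38.p6 that contains their midpoint, or else to the nearest gene end within 100 kb. Start sites and promoter sequences came from RefSeq's GRCm38.p6 table (32851 start sites of 27025 genes). Steps were tested on simulated peak lists. Median ranks were compared by an exact permutation test over libraries, and shares carry 95% Wilson intervals. Without a genome sequence, motifs around summits were not searched, although this was planned.

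The regions and the gene lists were chosen with earlier results of these data known. Named genes are those with 3 or more regions, the 10 best mean ranks, up to 4 genes per list, the 6 best ranks within 1 kb of a gene end, the 5 widest shifts each way between genotypes, 3 regions on each side of the threshold, Myc, Rxra, Rxrb, Flt3, Cd48 and Slamf1. The regions over start windows were named besides these after their values were seen. Alternatives were the ranking column, top-set size, distances, width, left-out libraries and the replicate block.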

Additional observations from a re-analysis of the deposited data

How the results depend on the processing

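No direction was reversed under any of the alternatives run. Ranking by fold enrichment first gave 1370 regions, with 3.43% near a gene end. WT was stronger at 51.9% and KO at 4.53% of these. Under this ranking both shares of all strong MPP regions were also lower than the 22.9% and 23.9% of the main ranking. A top set of 10000 peaks left 75 regions, with 2.67% near a gene end. WT was stronger at 70.7% and KO at 2.67% of these, against 21.2% and 22.1% of all strong MPP regions. A top set of 15000 left 314, with 68.8% and 3.82%, against 22.2% and 23.2%. Requiring no LT-HSC peak within 1 kb gave 3.46% near a gene end, and a limit of 5 kb in place of 1 kb gave 19.1%. Absence judged on the 2 LT-HSC WT lists alone, chosen after seeing the data, gave 1782 regions, 54.0% and 9.32%. Leaving out each library in turn gave 1025 to 1521 regions, the latter without LT-HSC KO 4, 4.59% to 5.85% near a gene end, WT stronger at 55.6% to 75.2%, KO stronger at 6.54% to 13.6%, the last without MPP WT 1, and a difference of median ranks of 2637 to 3418. With 1 MPP library left out only 3 ranks are compared, so fewer regions overlap: KO was stronger at 11.3% to 13.6%, against 35.8% to 38.0% of all strong MPP regions. The WT order is looser in these settings for the same reason. Its shares there cannot be set beside the 22.9% that all strong MPP regions had with 4 MPP libraries.

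The labels do not say whether MPP libraries of the same replicate number were made together. Deviations of same-numbered libraries had a correlation of −0.08 over 18776 regions, a single value that cannot settle this. Comparing within the replicate block, WT was stronger in both pairs at 70.9% and KO at 8.83% of the regions, against 29.6% and 30.6% of all strong MPP regions. Of 551 counts for lists and named genes recomputed under the alternatives, 444 stayed within 1.5 times; that of HSC identity genes ranged from 0 to 3. Depth is unknown, and an absent peak in a short LT-HSC list may be one that was not called. The planned search of 300 bp against 100 bp around summits was not run.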

Other observations

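Of the 858 genes with a strong MPP-only region, 10 also had a strong region open in LT-HSCs alone: Rftn1, Zranb3, Spin1, Ubp1, Cd69, Itpr1, Patj, Apc, Col4a1 and Tent5c. Cd69 encodes an early activation antigen of lymphocytes, Itpr1 a calcium release channel and Apc a brake on beta-catenin. Each of the 10 had 1 strong MPP-only region except Rftn1, which had 3, and each had 1 strong LT-HSC-only region except Tent5c, which had 2. Apart from 1 region of Rftn1, both WT ranks were stronger at every strong MPP-only region of these genes, an order found at 64.1% of all 1019. The share of all genes with a strong LT-HSC-only region was not counted, so both counts are a description only. The top set is also a looser limit in short lists. It held 100% of the LT-HSC KO 1 list and 99.2% of LT-HSC WT 3, against 26.3% to 29.0% of the MPP lists.

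Among miRNA genes, 1 region overlapped the hairpin of Mir3092 within Fndc3b. The next nearest, assigned to Parp1, lay 482 bp from that of Mir6904 and had both WT ranks stronger, as had 64.1% of all 1019. A further region lay 2469 bp from the hairpin of Mir142b, whose locus is active in most blood cells, and its KO and WT ranks overlapped.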
